A study of Sus scrofa with 12 samples.

Results

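The antioxidant and redox genes are 43 listed genes of oxidative defence: superoxide dismutases, catalase, glutathione peroxidases, peroxiredoxins, the thioredoxin and glutathione systems, and the NRF2 axis with its targets. Of these, 42 had an mRNA in the RefSeq annotation of Sscrofa11.1, among 20674 genes with a coding mRNA, and GSTP1 was not analysed here. The rule lists genes by name and uses no measured value, but the list was drawn up with earlier results of these data known. Each gene was followed through the m6A peaks of sperm from Duroc boars before and after cryopreservation.

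By the study's methods, fresh sperm (Fs) was put into liquid nitrogen at once and stored frozen until RNA extraction, where the labels say only that it was used directly, so RNA of both groups came from sperm that had been frozen. Frozen-thawed sperm (Fts) came from the other portion of the ejaculates, which was cooled to 17 °C, resuspended in a lactose and egg yolk extender, kept at 4 °C, mixed with extender holding 6% glycerol, frozen in straws in liquid nitrogen vapour and stored in liquid nitrogen. RNA of both groups was depleted of ribosomal RNA, broken into fragments of about 100 nt and pulled down with an m6A antibody (IP). Each group had 3 IP samples, and an input library went with each. Semen came from 3 boars with 5 ejaculates per boar, but the labels did not tie a replicate number to a boar, so the spread between samples may be partly technical.

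Sperm hold little cytosol and many polyunsaturated lipids, and they depend on a small set of enzymes that remove superoxide and hydrogen peroxide. Thioredoxin and glutathione carry the reducing power of NADPH to peroxidases and to oxidised protein thiols, and NFE2L2 (NRF2), held in check by KEAP1, is the transcription factor that switches on many of these genes. In mRNA, m6A is a methyl mark on adenosine, usually within the motif RRACH, that bears on the stability and translation of the transcript.

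A peak marks a part of an mRNA where IP reads exceed those of the input library. The score of a peak is the value the authors deposited, 10 times -log10 of the p-value of that excess, so that a score of 20 stands for p = 0.01 and a score of 50 for p = 1e-05. It measures how certain an excess of reads is, not how much of the RNA is methylated. The lists held 8015, 10378 and 10335 peaks in Fs samples 1, 2 and 3 and 9682, 11510 and 11982 peaks in Fts samples 1, 2 and 3. The lowest member score was 3.22, and 36 of the 68 member peaks had a p-value above 0.05, so many of them are weak.

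Of the 42 genes, 22 carried a peak in at least 1 sample, which was 52.4% of them beside 56.6% of all annotated genes. The cryopreserved samples had peaks on slightly more of these genes. In Fs samples 1, 2 and 3, peaks lay on 6, 8 and 10 members. In Fts samples 1, 2 and 3, they lay on 9, 13 and 11 members. The groups overlapped at 9 and 10 members, with a mean of 8 ± 2 in Fs and 11 ± 2 in Fts (SD, n = 3). As a share of the members this was 19.0% ± 4.76 against 26.2% ± 4.76, beside 28.9% ± 3.06 and 29.4% ± 2.42 over all genes. Members therefore lay below the mean of all genes in both groups, and the difference between the groups was 7.14 percentage points for them and 0.447 points for all genes. No p-value was computed for these shares.

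**Figure D1:**
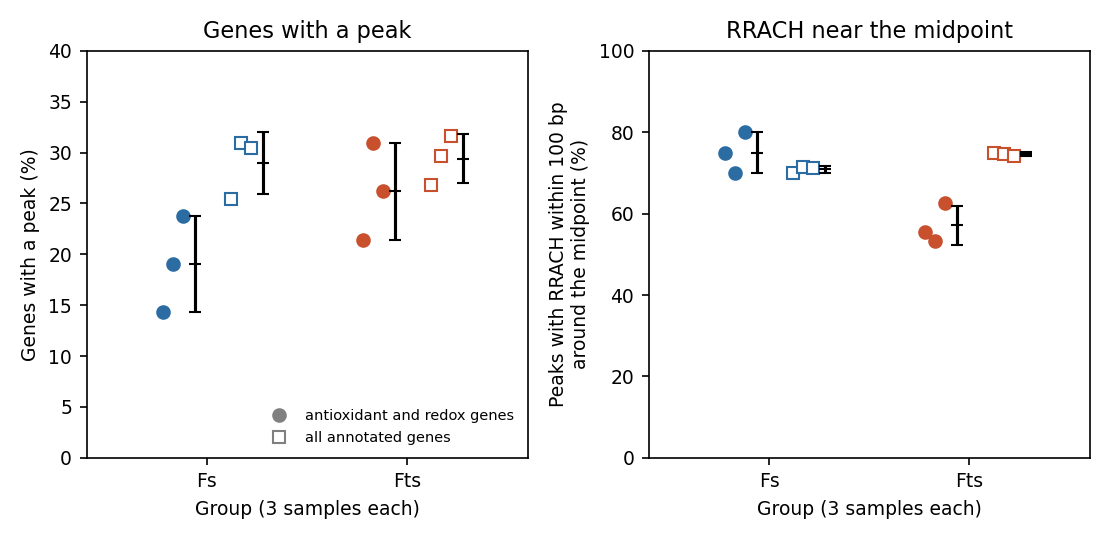
Left: share of genes with a peak (percent) in each of the 3 Fs and 3 Fts samples, for the 42 antioxidant and redox genes (filled circles) and all annotated genes (open squares). Right: share of peaks with an RRACH motif in the 100 bp of genome around the midpoint, which can include intron. Black bars are the mean and SD of 3 samples; member shares of genes with a peak run from 14.3% to 23.8% in Fs and from 21.4% to 31.0% in Fts.

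The regions that carry the results below are printed here from the Sscrofa11.1 genome, 5′ to 3′ on the transcript strand, so that the positions with and without the motif can be seen. Capitals mark RRACH, that is A or G, A or G, A, C, and then A, C or T. Most are coding exons that a peak filled or nearly filled. The TXNRD3 stretches and GSR exon 5 come first because they hold no RRACH. The NFE2L2 stretch is the central 150 nt of the part that its 3 Fts peaks share.
TXNRD3 exon 7 (its first 111 bases), chr13:73296080-73296190, plus strand: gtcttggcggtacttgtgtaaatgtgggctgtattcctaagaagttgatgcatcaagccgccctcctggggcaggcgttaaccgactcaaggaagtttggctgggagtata
TXNRD3 exon 11 (its first 152 bases), chr13:73302331-73302482, plus strand: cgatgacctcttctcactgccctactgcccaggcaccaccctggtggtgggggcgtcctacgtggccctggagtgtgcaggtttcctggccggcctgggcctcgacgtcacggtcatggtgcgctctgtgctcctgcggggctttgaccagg
GSR exon 5, chr15:54410894-54411041, plus strand: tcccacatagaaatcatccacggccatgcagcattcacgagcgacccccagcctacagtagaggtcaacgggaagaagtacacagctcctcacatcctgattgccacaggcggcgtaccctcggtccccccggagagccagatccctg
GSR exon 10, chr15:54427122-54427233, plus strand: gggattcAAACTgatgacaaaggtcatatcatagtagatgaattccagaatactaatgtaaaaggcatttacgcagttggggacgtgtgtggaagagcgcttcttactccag
GSS exon 11, chr17:38319240-38319321, minus strand: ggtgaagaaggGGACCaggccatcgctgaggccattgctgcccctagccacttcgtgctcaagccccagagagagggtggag
GSS exon 12, chr17:38317623-38317812, minus strand: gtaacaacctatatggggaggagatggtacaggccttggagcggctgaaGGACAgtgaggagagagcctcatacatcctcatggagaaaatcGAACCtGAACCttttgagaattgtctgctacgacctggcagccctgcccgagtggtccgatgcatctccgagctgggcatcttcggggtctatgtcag
NADK2 exon 3, chr16:21539737-21539825, minus strand: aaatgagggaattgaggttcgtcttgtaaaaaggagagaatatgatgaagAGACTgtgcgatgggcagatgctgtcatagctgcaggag
NADK2 exon 4, chr16:21537442-21537523, minus strand: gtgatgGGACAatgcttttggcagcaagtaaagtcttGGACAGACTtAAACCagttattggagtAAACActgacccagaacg
NQO1 exon 4, chr6:17299021-17299134, plus strand: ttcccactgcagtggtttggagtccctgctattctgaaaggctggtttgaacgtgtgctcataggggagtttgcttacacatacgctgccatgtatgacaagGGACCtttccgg
NFE2L2 exon 5, chr15:82974791-82974940, minus strand: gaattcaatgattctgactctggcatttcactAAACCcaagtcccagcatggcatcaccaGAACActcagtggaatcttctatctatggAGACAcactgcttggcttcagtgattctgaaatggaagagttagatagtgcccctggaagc

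Over the 6 samples, the members had 68 peaks, 28 in Fs and 40 in Fts. Fs samples 1, 2 and 3 had 8, 10 and 10 of them, and Fts samples 1, 2 and 3 had 9, 15 and 16. Overlapping peaks were joined into 34 regions. Of these, 10 were seen in Fs only, 15 in Fts only and 9 in both groups, and 16 rested on 1 sample. The shares of all regions were not computed for these counts. Over all genes, the mean number of peaks on mRNA exons was 8120 ± 1129 in Fs and 9844 ± 1190 in Fts. Counting only the bases that lie in annotated exons, coding sequence made up the largest part of 26 regions, 5′UTR of 4 and 3′UTR of 4, although the GLRX, GSTM3 and longer TXN2 regions extend mostly beyond exons. Peak edges followed the gene model: 27 of the 68 peaks ran from the start to the end of an exon, and 59 began or ended at an exon boundary.

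**Figure D2:**
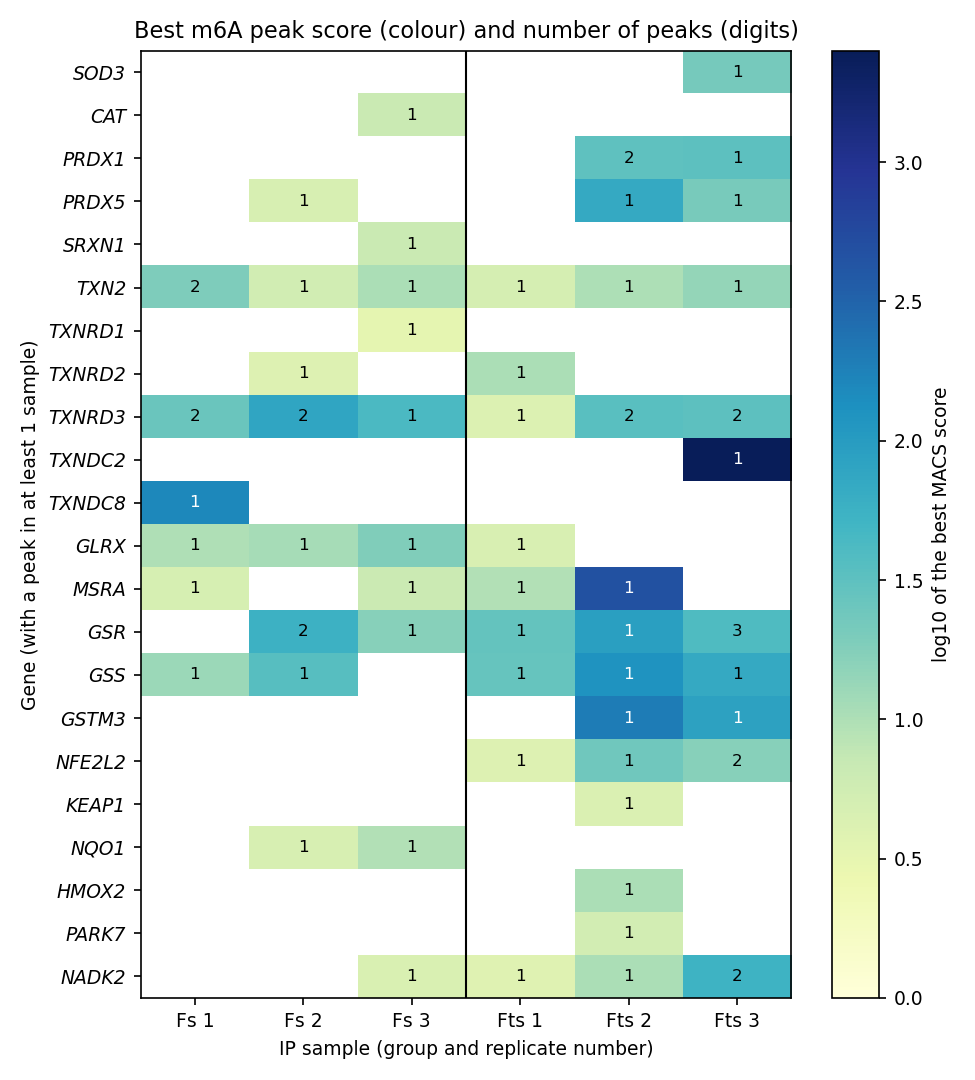
Best MACS score (colour, log10 scale) and number of peaks (digits) for the 22 antioxidant and redox genes with a peak, in 3 Fs and 3 Fts samples; white cells hold no peak. TXN2 and TXNRD3 have a peak in every sample, and NFE2L2 has peaks in the 3 Fts samples and in none of the Fs samples.

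The first line of enzymes carried few peaks. SOD1 and SOD2, the cytosolic and mitochondrial superoxide dismutases, had none in any sample. SOD3, the secreted superoxide dismutase, had 1 peak, with a score of 21.4 in Fts sample 3. CAT, which splits hydrogen peroxide, had 1 peak of score 6.48 in Fs sample 3, near its stop codon. None of the glutathione peroxidases GPX1 to GPX8 had a peak (0 of 8). GPX4, which reduces lipid hydroperoxides and is a structural protein of the sperm midpiece, is one of them, and so is the epididymal GPX5. Their mRNAs were 799 to 1736 nt long, against a median of 2858 nt over all genes. Across all genes those with a peak had longer mRNAs (median 3576 nt) than those without (2133 nt), and the same medians for the members were 2123 and 1491 nt. Whether length bears on the missing peaks of these genes was not tested. A missing peak says that no excess of IP reads was listed, and levels of these mRNAs were not analysed here.

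Of the peroxiredoxins, thiol peroxidases that thioredoxin reduces, PRDX2, PRDX3, PRDX4 and PRDX6 had no peak. PRDX1 had none in the Fs samples and none in Fts sample 1. Its last exon carried peaks of score 31.7 and 31.8 in Fts samples 2 and 3, and exon 5 a further peak of 11.6 in Fts sample 2. PRDX5 showed the same samples, with peaks of 69.2 and 21.0 at its stop codon in Fts samples 2 and 3, beside a weak peak of 4.70 in exon 2 of Fs sample 2. SRXN1, which restores overoxidised peroxiredoxins, had 1 peak of 6.61 in Fs sample 3. Fts sample 1 had no peak in this class, and neither PRDX1 nor PRDX5 separated the groups.

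The thioredoxin class held the peaks most often found. With TXN2 and TXNRD3, it gave both members with a peak in all 6 samples, 2 of 42 or 4.76%, beside 7.65% of all genes. TXN itself, the cytosolic thioredoxin, and GLRX2, the mitochondrial glutaredoxin, had no peak.

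TXNRD3 is the thioredoxin reductase with an added glutaredoxin domain that is most abundant in testis. Its exon 7 (120 bp, of 18 exons) was the only member region marked in all 6 samples, 1 of 34 beside 3.22% of 26099 regions over all genes. The scores were 25.6, 78.6 and 41.9 in Fs samples 1, 2 and 3 and 4.15, 3.39 and 31.7 in Fts samples 1, 2 and 3. The 3 Fs peaks each covered the first 111 bases of the exon. The 3 Fts peaks covered the downstream 44, 44 and 55 bases of that stretch. Peaks were thus shorter in every Fts sample, while the scores overlapped between the groups, at 25.6 in Fs and 31.7 in Fts. A second site, exon 11, was marked in Fts samples 2 and 3 only, at 34.1 and 26.5. Exon 6 in Fs sample 2 (11.9) and exon 17 in Fs sample 1 (4.89) were each seen once. Neither printed stretch of TXNRD3 holds RRACH. With 100 nt of spliced mRNA on each side, exon 7 had 4 matches and exon 11 had 1. The number of TXNRD3 peaks was 2, 2 and 1 in Fs and 1, 2 and 2 in Fts, so the mean did not differ between the groups.

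TXN2, the mitochondrial thioredoxin, had 2 regions near its 5′ end. The one that ends with exon 2 had scores of 18.9 and 10.4 in Fs samples 1 and 3, no peak in Fs sample 2, and 5.01, 10.2 and 14.1 in Fts samples 1, 2 and 3. The groups overlapped. These peaks were 542 to 798 bp long, of which 263 bp were exon in RefSeq and the rest upstream intron. The other region, around exon 1, was seen in Fs samples 1 and 2 only, at 8.33 and 5.53. TXN2 kept its peak in all 6 samples only while overlap with an exon was enough: with the midpoint of a peak required to lie in an exon, TXNRD3 alone was left.

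GLRX, the cytosolic glutaredoxin that removes glutathione from protein thiols, leaned the other way. Its best score was 9.71, 10.9 and 18.8 in Fs samples 1, 2 and 3, against 4.49 in Fts sample 1 and no peak in Fts samples 2 and 3. It was the only member with a higher best score in every Fs than in every Fts sample, beside 6.03% of all genes. The peaks were 746 to 1008 bp long and shared 120 bp with exon 2, the remainder being intron in RefSeq. The number of peaks, 1, 1 and 1 against 1, 0 and 0, gave p = 0.5 in a two-sided exact sign-flip test on the pairs of equal number (adjusted p = 1 over 11705 genes).

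TXNDC2 and TXNDC8, the sperm-specific thioredoxins, each had 1 strong peak in a single sample. The TXNDC2 peak, 339 bp at the 3′ end of the coding sequence in exon 2, reached 2396 in Fts sample 3, the highest score of any member. The TXNDC8 peak was the shortest of all, 28 bp in the last exon, and scored 158 in Fs sample 1. The other 5 samples had no peak on either gene, so these high scores were not repeated in any replicate.

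MSRA, which reduces oxidised methionine with electrons from thioredoxin, behaved in a similar way. Its scores were 4.86 and 6.31 in Fs samples 1 and 3 and 9.57 and 477 in Fts samples 1 and 2, with no peak in Fs sample 2 or Fts sample 3. The region lies on first exons used by 5 of its 12 mRNAs. Both groups had 2 samples with a peak, and 1 library supplied the high value. TXNRD1, the cytosolic reductase, had 1 peak of 3.22 in Fs sample 3. TXNRD2, the mitochondrial reductase, had a peak in the same exon 8 in Fs sample 2 (4.04) and Fts sample 1 (10.4).

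**Figure D3:**
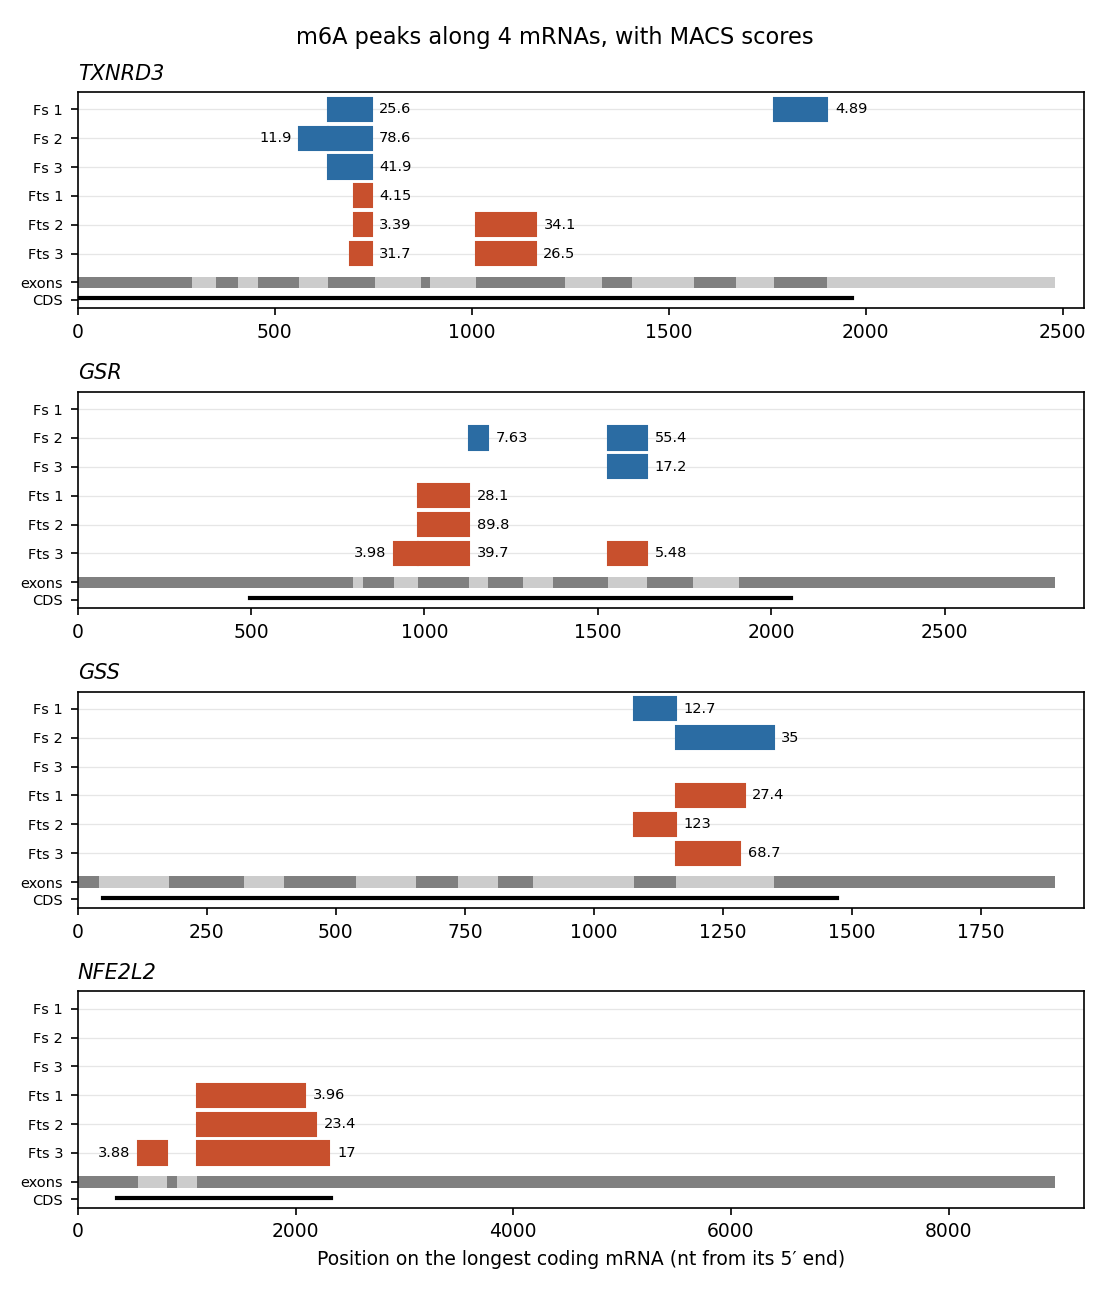
Peaks along the longest coding mRNA of TXNRD3, GSR, GSS and NFE2L2 (x axis, nt from the 5′ end), 1 row per sample, Fs in blue and Fts in orange; the digits are MACS scores, with the digit left of a bar for a peak that adjoins or precedes another. Grey blocks are exons and the black line is the coding sequence. GSR exon 5 and NFE2L2 exon 5 are marked in the 3 Fts samples only, and the Fts peaks on TXNRD3 exon 7 are 44 to 55 bases long beside 111 in Fs.

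Glutathione is made by GCLC with GCLM and then GSS, and GSR returns oxidised glutathione to its reduced form with NADPH. GCLC and GCLM, the rate-limiting step, had no peak. The naming rule did not select GSR, nor PRDX1, PRDX5, NQO1 and NADK2, and these were described by sample after their values were seen. On GSR, exons 5 and 10 were marked in different samples. Exon 5 (148 bp) was filled by a peak in every Fts sample, with scores of 28.1, 89.9 and 39.7, and had no peak in any Fs sample. Exon 10 (112 bp) carried scores of 55.4 and 17.2 in Fs samples 2 and 3 and 5.48 in Fts sample 3, and no peak in the other samples. Exon 6 in Fs sample 2 (7.63) and exon 4 in Fts sample 3 (3.98) were seen once each. As a gene, GSR had 0, 2 and 1 peaks in Fs and 1, 1 and 3 in Fts, with overlapping groups and p = 0.75 in the exact sign-flip test (adjusted p = 1). The pattern by exon is not seen in counts per gene. Exon 5 has a GC content of 59.5% and no RRACH, and 1 match once 100 nt of mRNA on each side are added, while exon 10 holds 1 match and 7 with the flanks.

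Regions with a peak in the 3 Fts samples and in no Fs sample were 2 of 34 on the members, GSR exon 5 and NFE2L2 exon 5, or 5.88% beside 6.79% of all regions. Regions with the reverse pattern were 0 of 34, beside 3.64% of all regions. These shares are near the background, so neither count sets the members apart.

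GSS, glutathione synthetase, was marked in neighbouring exons that took turns. Exon 12 had scores of 35.0 in Fs sample 2 and 27.5 and 68.7 in Fts samples 1 and 3. Exon 11 had scores of 12.7 in Fs sample 1 and 123 in Fts sample 2. Each sample with a GSS peak had it in only 1 of these exons, and Fs sample 3 had none. The exons adjoin on the mRNA, at positions 1077 to 1158 and 1159 to 1348, and both hold RRACH, 1 match in exon 11 and 3 in exon 12. The groups overlapped in number of peaks and in best score.

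GSTM3, a glutathione transferase of the sperm surface in pig, had strong peaks in Fts samples 2 and 3, with scores of 198 and 84.5, and none in the other 4 samples. The peaks were 211 and 438 bp long and shared 79 bp with exon 1, the remainder lying upstream of the annotated gene start. Since Fts sample 1 had no peak, the groups overlapped (p = 0.5 in the exact sign-flip test, adjusted p = 1). Without that sample, GSTM3 and PRDX1 would join NFE2L2 among the members with peaks in every Fts and no Fs sample.

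NFE2L2 was the only member whose number of peaks did not overlap between the groups. By region, GSR exon 5 showed the same pattern with a higher score in each Fts sample. The part of its last exon that is coding carried a peak of 990, 1090 and 1211 bp in Fts samples 1, 2 and 3, with scores of 3.96, 23.4 and 17.0. In Fs there was none. A second peak, on exon 2, scored 3.88 in Fts sample 3. NFE2L2 had 0, 0 and 0 peaks in Fs and 1, 1 and 2 in Fts, and was the only member with more peaks in every Fts than in every Fs sample (1 of 42, beside 5.08% of all genes) and the only one with peaks in the 3 Fts and no Fs sample (beside 3.16%). It was also the only one with a higher best score in every Fts sample (beside 7.45%). Under each of these 3 rules the share of members called, 2.38%, lay below the share of all genes. The sign-flip p was 0.25, the smallest that 3 pairs can give, and the adjusted p was 1. At a minimum score of 20 the peak stayed in Fts sample 2 alone, so the contrast rests on weak peaks in the other samples. The region of 1211 bp held 22 RRACH matches, of which the printed stretch shows 3.

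No member had more peaks in every Fs than in every Fts sample (0 of 42, beside 3.03% of all genes), and none had peaks in the 3 Fs and no Fts sample (0 of 42, beside 2.36%). Over all 11705 genes with a peak, 0 passed an adjusted p of 0.05 in the sign-flip test, 0 had an unadjusted p under 0.05, and 2065 stood at 0.25. An exact permutation of 3 against 3 samples cannot go below 0.1, and also called 0 genes.

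The genes of the NRF2 class other than NFE2L2 had peaks in at most 2 samples each. KEAP1, the adaptor that sends NFE2L2 for degradation, had 1 peak of 4.29 in its 5′UTR in Fts sample 2. NQO1, the quinone reductase, was marked on exon 4 in Fs samples 2 and 3, at 4.64 and 9.61, and in no Fts sample. HMOX2, the constitutive haem oxygenase, scored 10.5 and PARK7, a redox-sensing chaperone, 5.33, both in Fts sample 2 only. HMOX1, the inducible haem oxygenase, had no peak. Fts sample 2 held 4 of the 6 genes of this class, against 1 in each of the other Fts samples and 0, 1 and 1 in the Fs samples.

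NADK2 makes NADP in mitochondria, and its cytosolic counterpart NADK had no peak. Its exon 4 scored 4.44 in Fs sample 3 and 3.82 and 18.8 in Fts samples 1 and 3. The adjoining exon 3 scored 10.5 and 54.5 in Fts samples 2 and 3 and had no peak in Fs. In number, NADK2 had 0, 0 and 1 peaks in Fs and 1, 1 and 2 in Fts: 1 more in each Fts sample than in the Fs sample of the same number (p = 0.25 in the exact sign-flip test, adjusted p = 1), with groups that overlapped. Exon 4 holds 5 RRACH matches in 82 bases, the densest of the printed exons, and exon 3 holds 1 in 89.

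**Figure D4:**
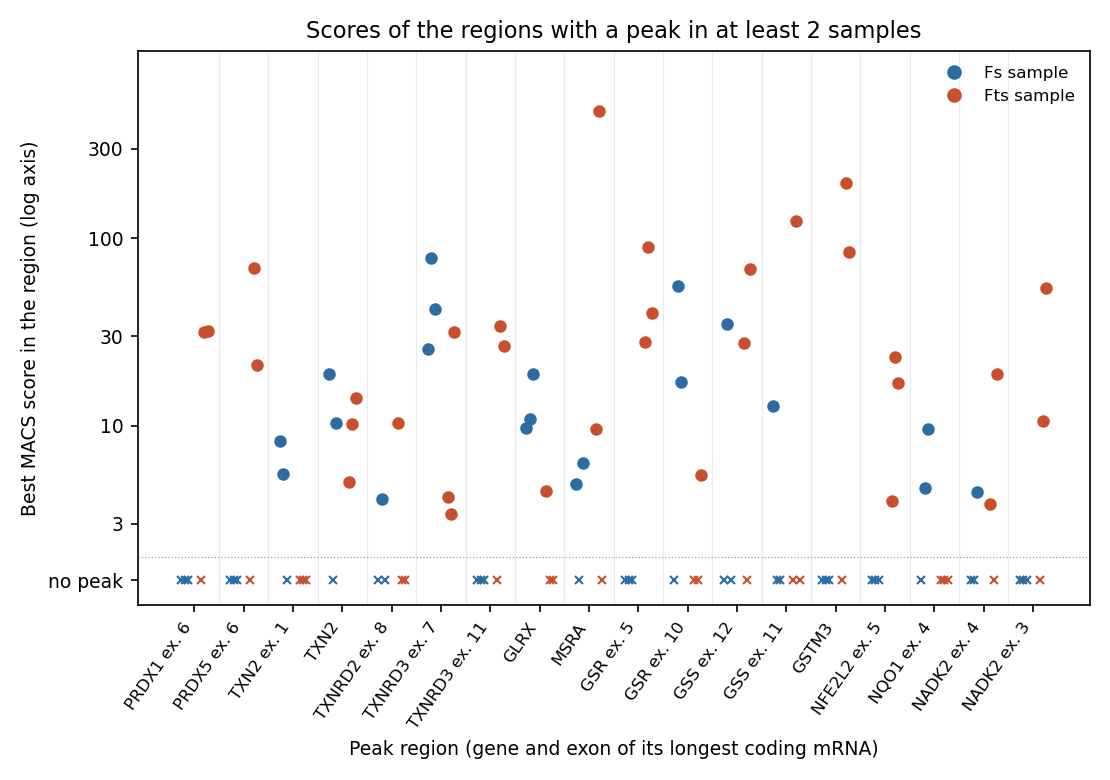
Best MACS score (log axis) of the member regions with a peak in at least 2 samples, Fs in blue and Fts in orange; crosses on the bottom line are samples with no peak. Regions are named by gene and exon of the longest coding mRNA, without an exon where the region lies mostly outside it. GSR exon 5 and NFE2L2 exon 5 show 3 Fts values and no Fs value.

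The median best score per sample was on average higher in Fts than in Fs, over the members and over all genes. The member values overlapped between the groups. Their difference turned from 12.1 to -14.0 when only peaks with a score of at least 20 were kept. The median best score of members with a peak was 15.8, 8.21 and 8.11 in Fs samples 1, 2 and 3 and 5.01, 31.7 and 31.8 in Fts samples 1, 2 and 3. Fts sample 1 lay below every Fs sample and the other Fts samples above them all. The means were 10.7 ± 4.42 and 22.8 ± 15.4 (SD, n = 3), beside 14.2 ± 0.403 and 19.1 ± 2.77 over all genes. Of the 12 member peaks with a score of at least 50, 3 were in Fs and 9 in Fts, with none in Fs sample 3 and none in Fts sample 1. As a mean share of member peaks per sample this was 10.8% ± 10.1 in Fs and 19.4% ± 17.3 in Fts. Over all genes the mean share also rose, from 16.5% in Fs to 23.6% in Fts. The member means lay below those of all genes in both groups, by less than the SD of the member shares. Without Fts sample 1, the difference in the median best score was 21.0, and without Fts sample 2 or 3 it was 7.71 or 7.63.

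Most member peaks that could be placed on the longest coding mRNA had their midpoint in the coding sequence: 40 of 52, with 6 within 100 nt of the stop codon, 3 within 100 nt of the start codon, 2 in the 3′UTR and 1 in the 5′UTR. The other 16 of the 68 had their midpoint outside that mRNA, though the TXN2, GLRX and GSTM3 peaks among them overlapped its exons. The coding share was 60.0%, 87.5% and 71.4% in Fs samples 1, 2 and 3 and 100%, 66.7% and 78.6% in Fts samples 1, 2 and 3, with means of 73.0% ± 13.8 and 81.7% ± 16.9 that differed by less than the spread. The difference of 8.77 percentage points became -5.56 with peaks of score 20 or more and -0.357 without Fts sample 1. Over all genes it was 70.7% ± 0.643 and 74.9% ± 0.461.

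RRACH was found in 52 of the 68 member peaks and GGACT, one of its forms, in 9. Both were searched in the genome sequence under the peak, introns included, on the transcript strand. Per sample, the RRACH share was 78.3% ± 10.4 in Fs and 73.8% ± 7.30 in Fts, beside 82.0% ± 0.395 and 87.2% ± 0.504 over all peaks on mRNA exons. The 100 bp of genome around the midpoint, which can run into introns, were searched as well. There, the member shares were 75.0%, 70.0% and 80.0% in Fs samples 1, 2 and 3. In Fts samples 1, 2 and 3 they were 55.6%, 53.3% and 62.5%. The groups did not overlap, while over all genes the means were 70.9% ± 0.841 in Fs and 74.6% ± 0.450 in Fts. Each member share rests on only 8 to 16 peaks. Of the printed stretches without the motif, GSR exon 5 was marked in 3 Fts samples, TXNRD3 exon 11 in 2 Fts samples and TXNRD3 exon 7 in all 6 samples.

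In a wider set of 134 annotated genes of redox metabolism, 83 had a peak (61.9%, beside 56.6% of all genes) and 16 had one in all 6 samples (11.9%, beside 7.65%). Peaks in the 3 Fts and no Fs sample were found on 5 (3.73%): TXNIP, the inhibitor of thioredoxin, with scores of 53.6, 120 and 123, ERO1B, an oxidase of protein disulphide formation, with 8.45, 36.0 and 4.28, SECISBP2, needed for selenoprotein synthesis, with 13.3, 47.1 and 21.0, RAC1, a GTPase that activates NADPH oxidases, with 5.56, 44.2 and 67.4, and AKR1B1, aldose reductase, with 64.6, 220 and 287. The reverse was found on 3 (2.24%): NCF1, an NADPH oxidase subunit, with 72.1, 35.7 and 58.5 in Fs, HEPH, a copper ferroxidase, with 49.9, 23.0 and 3.24, and NEIL1, a glycosylase for oxidised bases, with 3.05, 13.4 and 8.39. Over all genes these shares were 3.16% and 2.36%.

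Among NRF2 partners and stress regulators, 18 of 23 had a peak (78.3%, beside 56.6% of all genes) and 8 had one in all 6 samples (34.8%, beside 7.65%). In this list, 4 of 23 had more peaks in every Fts sample (beside 5.08% of all genes) and 1 of 23 in every Fs sample (beside 3.03%). These differences from all genes were not tested. Among the thioredoxin-like and disulphide exchange genes, 22 of 34 had a peak (64.7%), 3 of them with peaks in the 3 Fts and no Fs sample (8.82%, beside 3.16% of all genes) and 0 in reverse (beside 2.36%). For the glutathione transferases it was 8 of 13, for NADPH supply 7 of 13, for sources of reactive oxygen 10 of 19, for iron, haem and copper handling 9 of 16 and for the repair of oxidised bases and metabolites 9 of 16.

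Marker genes of sperm and of other cells of semen were read in the same way, in samples whose sperm pellets had been treated with Triton X-100 by the authors to remove somatic cells. Of 20 sperm markers, 12 had a peak (60%, beside 56.6% of all genes). They numbered 4, 5 and 4 in Fs samples 1, 2 and 3 and 3, 7 and 6 in Fts samples 1, 2 and 3. PRM1, TNP1, ODF1, AKAP4 and SMCP had none, while PRM2, TNP2, ODF2 and AKAP3 had a peak in at least 1 sample. The acrosomal ACR had peaks in the 3 Fs samples only and ZPBP in the 3 Fts samples only. DNAH17, a dynein of the sperm tail, had 2, 3 and 2 peaks in Fs and 0, 1 and 0 in Fts. Thus 2 of 20 sperm markers had more peaks in every Fs sample (beside 3.03% of all genes). In every Fts sample, 1 of 20 had more (beside 5.08%). Leukocyte markers with a peak numbered 1, 2 and 2 of 10 in Fs and 1, 2 and 2 in Fts. Epithelial markers numbered 1, 2 and 2 of 8 in Fs and 3, 3 and 4 in Fts, where KRT8 had peaks in the 3 Fts samples only. Of 11 Sertoli, Leydig and stromal markers, 4, 6 and 4 had a peak in Fs and 3, 3 and 3 in Fts. COL1A2 had peaks in the 3 Fts samples only and VIM in the 3 Fs samples only. Over all genes, 3.16% had peaks in the 3 Fts samples only and 2.36% in the 3 Fs samples only. Per sample, a mean of 28.9% of all genes had a peak in Fs and 29.4% in Fts. FN1, a matrix protein of stromal cells, was singled out after its values were seen, with 1, 2 and 0 peaks in Fs and 32, 31 and 27 in Fts. Of the 11 markers of its list, 2 had more peaks in every Fts sample (beside 5.08% of all genes). In every Fs sample, 1 had more (beside 3.03%). The part of other cells in the peaks of NFE2L2, GSR and the other members was not tested. In bulk samples, more cells of a type and more methylated RNA per cell cannot be told apart.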

How the data were processed

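The authors sequenced IP and input libraries as 150-bp paired reads, trimmed them with cutadapt (1.9.3, per the labels), aligned them with HISAT2 to Sscrofa11.1 and called peaks with MACS, each IP library against its own input. The deposited files are 6 lists of peaks on mRNAs, 1 per IP sample. The deposited value is a score, 10 times -log10 p from MACS, not corrected for multiple tests. Read depth is not in the peak lists and is not used here, so no counting interval is given. The study reports fewer mapped IP reads, and a smaller mapped share of IP and of input reads, in every Fts than in every Fs sample. The p-value of an excess of reads depends on depth, and the part of depth in the differences between groups was not tested. The authors' own list of differential sites holds scores made from the p-values of their comparison and was not used.

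Peaks were given to every gene of the same strand with which they shared 1 bp or more of mRNA exon (RefSeq Annotation Release 106). Midpoints were located along the coding mRNA with the greatest exon length, with codon classes reaching 100 nt to each side, and overlapping peaks were joined into regions. Deposited peak starts were shifted by 1 base to give 1-based positions. Numbers of peaks per gene were compared by two-sided exact sign-flip tests over pairs of equal replicate number, following the paired design of the study, with Benjamini-Hochberg adjustment over all genes with a peak. All other comparisons are descriptions. Values in every sample were given for members whose number of peaks or best score did not overlap between the groups, with a peak in all 6 samples, or among the 5 highest best scores. PRDX1, PRDX5, GSR, NQO1 and NADK2 were outside this rule and were added after their values were seen, as were members with a peak in 1 or 2 samples, given by that value. Wider genes were named when they had peaks in the 3 samples of 1 group and none of the other. Among the markers, DNAH17 and FN1 were outside this rule and were added after their values were seen. The members and lists were chosen with earlier results of these data known.

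Python 3.11.15, numpy 2.4.6, pysam 0.24.0, samtools 1.23.1 and matplotlib 3.10.9 were used. The code was tested on simulated peak lists. The 6 input libraries had no peak list and were not analysed here.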

Additional observations from a re-analysis of the deposited data

How the results depend on the processing

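With 3 samples per group, the exact tests used cannot go below 0.25 with pairs or 0.1 without, so they could call nothing. The mean difference in members with a peak stayed between 2 and 4.33. That in member peaks, 4, ranged from 2.67 without Fts sample 3 to 6.17 without Fts sample 1, and was 2 at a minimum score of 50. That in the coding share, 8.77 percentage points, was -5.56 at a minimum score of 20 and ranged from -0.357 to 16.3 on leaving out 1 sample (2.28 without Fs sample 1), all within the spread between pairs. At a minimum score of 20, the difference in median best score became -14.0 (12.1 in the analysis reported, 7.63 to 21.0 on leaving out 1 sample), and at minimum scores of 20 and 50 no member had a peak in all 6 samples, none had more peaks in every Fts sample and none had peaks in the 3 Fts and no Fs sample (0 each). With the midpoint required in an exon, 1 member had a peak in all 6 samples. Leaving out 1 sample in turn gave 1 to 3 members with more peaks in every Fts sample and with peaks in the 3 Fts and no Fs sample (PRDX1 and GSTM3 added without Fts sample 1, NADK2 without Fs sample 3), 0 to 1 in the reverse direction for both rules (NQO1 without Fs sample 1, GLRX without Fts sample 1), and 2 to 3 with a peak in all samples (GSR added without Fs sample 1, GSS without Fs sample 3). The RRACH share of member peaks, 76.0% over the 6 samples, was 92.2% for DRACH, 14.5% for GGACT and 66.1% in the 100 bp of genome around the midpoint. At a minimum score of 50 the coding share and the median best score could not be computed, since samples were left without a peak.

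Numbers of peaks showed no sign of pairing by replicate number, which cannot settle whether equal numbers stand for the same boar. Deviations from the group means over 11705 genes correlated between same-numbered samples at 0.0103, -0.0143 and 0.0129. Without the replicate block, an exact permutation test called 0 genes, as its smallest p is 0.1, and differences of group means cannot change with the block, so the comparison of the fits says nothing about stability.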

Other observations

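FTH1, the heavy chain of the iron store ferritin and a gene of the wider set, was singled out after its values were seen. It had 1, 0 and 0 peaks in Fs samples 1, 2 and 3 and 2 in each Fts sample, with best scores of 4.20 in Fs sample 1 and 1975, 2935 and 734 in Fts samples 1, 2 and 3. The groups did not overlap in number of peaks or in best score. Over all genes, 5.08% had more peaks in every Fts sample and 7.45% a higher best score.

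GSTCD, which has a glutathione transferase domain, and LANCL1, which binds glutathione, were the genes of the glutathione transferase list with peaks in all 6 samples. GSTCD scored 11.9, 94.7 and 37.5 in Fs and 28.1, 97.2 and 87.5 in Fts, and LANCL1 scored 108, 24.6 and 9.85 in Fs and 15.1, 12.7 and 14.8 in Fts, so that both overlapped between the groups.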
